A study of Mus musculus with 16 samples.

Results

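Cancer cells carrying only the GFP reporter signal were compared with cancer cells carrying only mScarlet, across all genes measured by bulk RNA sequencing. The comparison takes the 4 libraries titled GFP and the 4 titled mScarlet, 8 of the 16 libraries of the series. All 16 came from 1 mouse pancreatic ductal adenocarcinoma (PDAC) line, named KPC 7TCF-eGFP/Porcn-DMA in the labels, grown in the pancreas of host mice, and both reporter elements are therefore shared by every group. After dissociation, fluorescence sorting divided the cancer cells into GFP, mScarlet, double-positive (DP) and double-negative (DN) populations, with 4 mice given per group. Of the line's name, 7TCF-eGFP is a green fluorescent protein driven by TCF sites, and the GFP population is read here as the one the design calls WNT-responsive. The design also speaks of WNT-secreting cells, but no label says in words that mScarlet marks them, and no source used here says what the Porcn-DMA element consists of. Host strain, age and sex are likewise not given, and neither is whether the libraries that share a number from 1 to 4 came from the same mouse.

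WNT proteins are secreted lipid-modified ligands. The acyltransferase PORCN attaches the lipid in the endoplasmic reticulum, the carrier WLS takes the ligand to the surface, and Frizzled receptors on a receiving cell then stabilise beta-catenin, which acts with TCF/LEF factors at target genes such as Axin2. PDAC cells vary between a classical state, with gastric and intestinal epithelial genes such as trefoil factors, and states with mesenchymal and matrix genes, and the pancreas around them holds fibroblasts, macrophages and acinar cells that make many of the same matrix and inflammatory transcripts.

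Promoter sequence was at hand for both directions of the comparison. The 250 bases before the RefSeq start (build GRCm38.p6) are shown for Tnc, the gene with the lowest p of the comparison, and for Prap1 and Agr2, which were higher in mScarlet. Capitals mark a match to one of 4 motifs searched on both strands. TCF/LEF was searched as CTTTGAA, and also with AT, TA or TT in place of the final AA. AP-1 was searched as TGANTCA. The forkhead motif was searched as TGTTTNC. For GATA factors the letters were AGATAA. Tnc lies on the minus strand of chromosome 4 (window chr4:64047016-64047265) and is listed with 2 starts, of which the first is shown. Prap1 lies on the plus strand of chromosome 7 (window chr7:140093146-140093395), and Agr2 on the plus strand of chromosome 12 (window chr12:35992675-35992924).
Tnc: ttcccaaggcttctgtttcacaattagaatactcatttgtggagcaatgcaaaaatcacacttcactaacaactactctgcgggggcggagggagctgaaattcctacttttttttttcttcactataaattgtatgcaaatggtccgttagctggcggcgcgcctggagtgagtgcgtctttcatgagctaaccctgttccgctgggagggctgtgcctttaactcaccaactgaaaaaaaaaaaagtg
Prap1: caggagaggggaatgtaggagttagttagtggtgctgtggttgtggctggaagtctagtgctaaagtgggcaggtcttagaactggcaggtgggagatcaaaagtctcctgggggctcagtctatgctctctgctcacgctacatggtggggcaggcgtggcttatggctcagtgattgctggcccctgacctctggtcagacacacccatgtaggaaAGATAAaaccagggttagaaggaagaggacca
Agr2: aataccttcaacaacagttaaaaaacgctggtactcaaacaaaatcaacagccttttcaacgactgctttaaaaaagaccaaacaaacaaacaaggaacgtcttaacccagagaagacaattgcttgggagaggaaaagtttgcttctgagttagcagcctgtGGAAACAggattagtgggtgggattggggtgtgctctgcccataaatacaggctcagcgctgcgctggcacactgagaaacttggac
The Tnc window held none of these letters, the Prap1 window held 1 GATA match, 32 bases before the start, and the Agr2 window held 1 forkhead match on the other strand, 87 bases before the start. Fn1, Porcn, Tff1, Tff2, Tff3 and Ctse had no entry in the promoter table.

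Sequencing was deep and similar between the groups, with 82118426 to 100358451 counts in the GFP and 80728607 to 92937247 in the mScarlet libraries. Levels are given as CPM, the count of a gene scaled to library size with edgeR's TMM factors. The 4 values of a group are listed in the order of the library numbers, 1 to 4. The epithelial genes Cdh1, Krt8, Krt18 and Krt19 were abundant in all 8 libraries (Cdh1 at 513, 876, 1046 and 308 CPM in GFP libraries 1 to 4 and 1446, 1276, 1206 and 882 in mScarlet libraries 1 to 4), while Epcam, a common epithelial surface marker, was near 0 in every one of them but GFP library 4, at 29.0 CPM. Cdh1, Krt8, Krt18 and Epcam were named after their values were seen. Of 20 tested members of the epithelial adhesion list, 13 had a higher fitted level in mScarlet, and 0 were called in either direction. The median log2 fold change (GFP minus mScarlet) was -0.39, and 10 members had an unadjusted p under 0.05 (edgeR).

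Of the 8 libraries, GFP library 1 or 4 held the highest sum of fibroblast, macrophage, acinar and erythroid markers, each for different lists. Summed over 20 fibroblast markers, GFP libraries 1 to 4 held 2006.5, 3459, 2430.1 and 21406 CPM, against 1257 to 1536 in mScarlet. For 20 macrophage markers the sums were 39341, 6602, 6159 and 3057 CPM in GFP and 1389 to 3914 in mScarlet, and for 27 acinar enzymes and factors 1192, 3103, 469 and 35360 CPM in GFP and 86.3 to 1714 in mScarlet. GFP library 4 therefore had the highest fibroblast and acinar sums, and GFP library 1 the highest macrophage sum, as well as the highest sum of 6 erythroid markers (4712 CPM, against 4.7 to 112 in the other GFP libraries). All 20 fibroblast, all 20 macrophage and all 26 tested acinar markers had a higher fitted level in GFP, of which 10, 0 and 0 were called by edgeR. At an unadjusted p under 0.05 these lists held 18, 18 and 24 genes, and DESeq2 called 13, 12 and 19 of them. Markers at 0 in a library numbered 0 to 1 of the 20 fibroblast markers in GFP and 1 to 5 in mScarlet, where the defining markers Lum (libraries 2 and 3), Pdgfra (library 4) and Pdgfrb (library 2) were at 0. GFP libraries 2 and 3 also lay above all mScarlet libraries in the fibroblast and macrophage sums. Leaving out GFP libraries 1 and 4 made the difference smaller in the fibroblast, macrophage and acinar lists, but most members stayed higher in GFP. The members higher in GFP were then 18 of 20 fibroblast, 20 of 20 macrophage and 24 of 26 acinar markers. Their median log2 fold changes were 3.59, 2.35 and 1.75, with 0 called, against 5.27, 3.36 and 4.42 with all libraries. Of 5 tested erythroid markers, 3 were then higher in GFP at a median of 0.01, against 5 at 4.13 with all libraries. Other marker lists, with all libraries kept, differed in direction. Of 12 neutrophil markers 10 were higher in mScarlet, at a median of -0.93, and mScarlet library 1 had the highest sum of the 8 (739 CPM). Lymphocyte markers were split, with 7 of 16 higher in GFP and a median of -0.09. All 13 tested endothelial markers were higher in GFP, with 1 called and a median of 2.39. The part of other cell types in the results below was not tested. In bulk RNA, fewer cells of a type and less RNA per cell cannot be told apart.

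**Figure D1:**
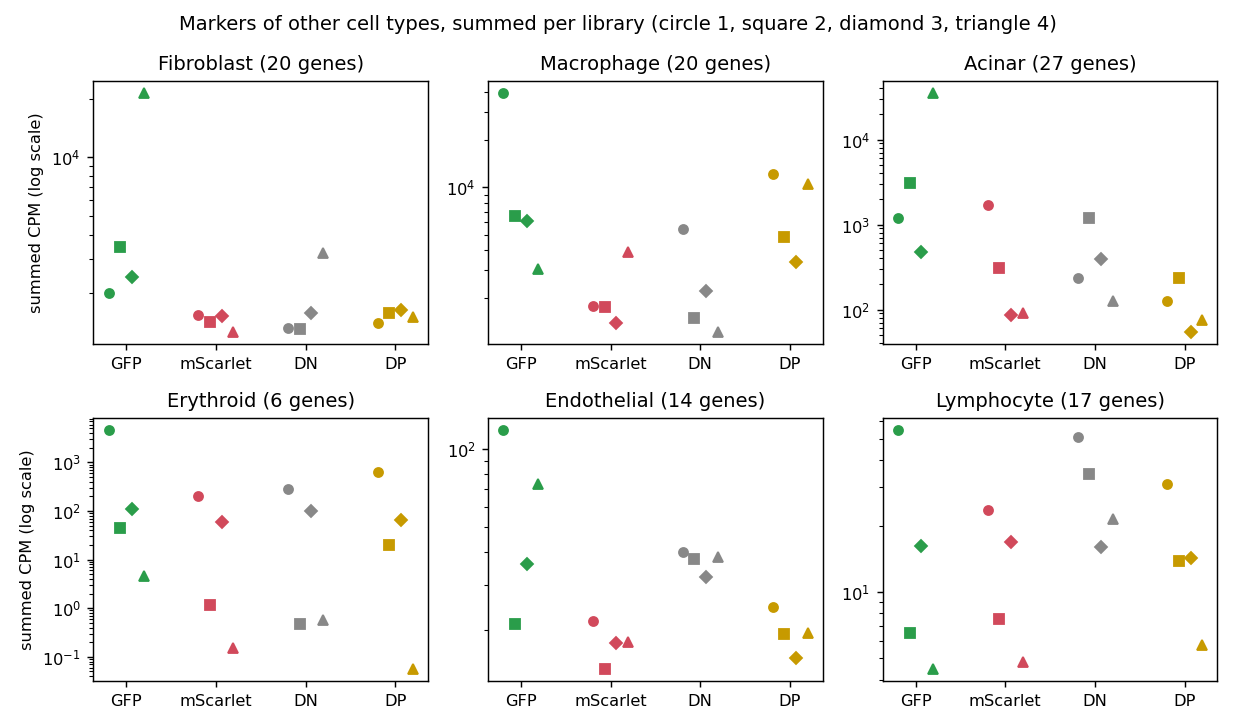
Summed CPM (log axis) of marker lists for 6 other cell types in each of the 16 libraries, by group; each point is 1 library and its shape gives the library number. GFP library 4 is highest for fibroblast (21406 CPM) and acinar markers (35360 CPM), and GFP library 1 for macrophage (39341 CPM) and erythroid markers (4712 CPM).

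Across the transcriptome 290 of 15963 genes tested were called at an edgeR adjusted p under 0.05, or 1.82%. Of these, 210 were higher in GFP (1.32%) and 80 higher in mScarlet (0.501%), and 3084 genes had an unadjusted p under 0.05. The genes higher in GFP had a median log2 fold change of 4.23 and those higher in mScarlet one of -1.14, so the GFP side held the larger ratios. Over all genes tested the median was 0.02, and 51.1% had a higher fitted level in GFP. The counts of list members below are to be read against that share and against the 1.32% and 0.501% called. List counts at an unadjusted p under 0.05 are to be read against 3084 of 15963 genes. Those called by DESeq2 are to be read against the 10.2% of genes that it called. GFP library 4 was the highest GFP library for 130 of the 210 genes higher in GFP (61.9%, against 29.9% of all genes tested) and library 1 for another 72. Of the 80 genes higher in mScarlet, GFP library 1 was the lowest GFP library for 51 and library 4 for 24.

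The count of calls depended on single libraries on both sides. With GFP libraries 1 to 4 left out in turn it was 150, 485, 548 and 67. With mScarlet libraries 1 to 4 left out in turn it was 6, 6, 19 and 325. The share of tested genes called was 0.905% without GFP library 1 and 0.406% without GFP library 4. Leaving out DP library 1 or 2, which enter through the shared filter, scaling and estimate of spread, gave 184 and 175, and without DP library 3 the genes higher in mScarlet numbered 53. Without GFP libraries 1 and 4 together, 2 genes were called (0.0115%), Tnc and Cdh15. These 2 were also the calls of a fit to the 8 libraries alone (0.014%). DESeq2 called 10.2% of the genes with an adjusted p, and limma voom with quality weights 0.708%. Of the 72 called genes named here, Tnc and Cdh15 kept their call whichever single library was left out, 21 did without GFP library 4 and 39 without GFP library 1. Without mScarlet library 1, 2 or 3, 2, 3 and 6 of the 72 kept it. No called gene named here changed direction in any of the 28 alternatives.

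**Figure D2:**
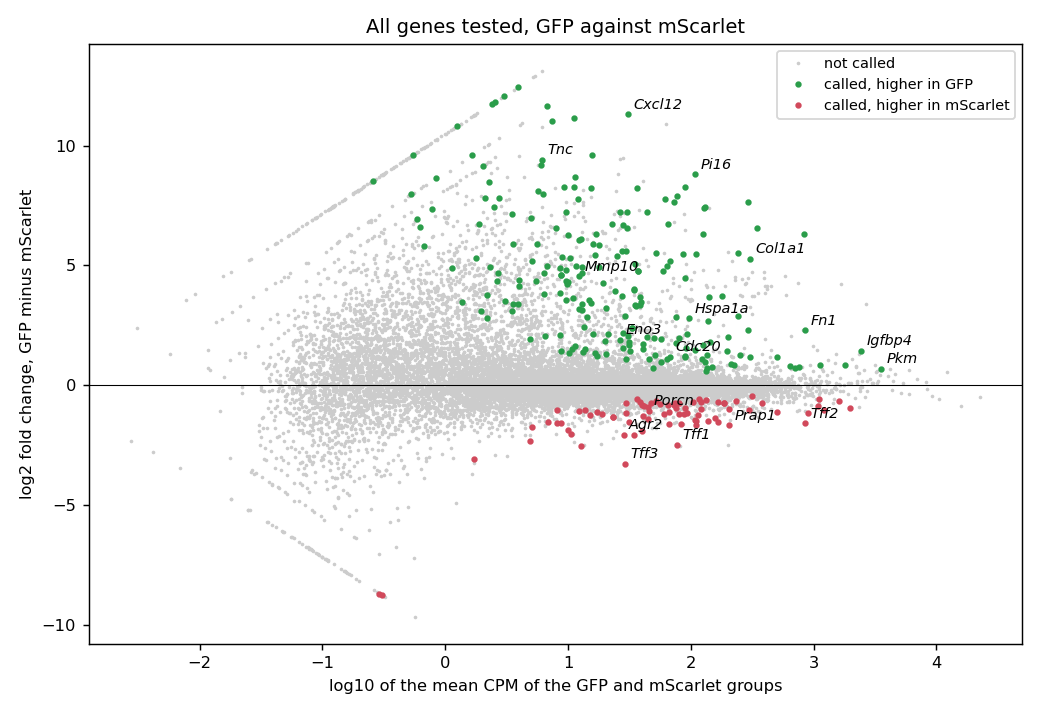
Log2 fold change (GFP minus mScarlet) of each gene tested against the log10 of its mean CPM over both groups; each point is 1 gene, green for the 210 called higher in GFP and red for the 80 called higher in mScarlet. Log2 fold changes of the calls run from 0.58 to 12.45 on the GFP side and from -8.77 to -0.44 on the mScarlet side.

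Tenascin-C and fibronectin, both matrix glycoproteins made by mesenchymal cells and by carcinoma cells in transition, were higher in GFP, and Porcn and Prap1 were higher in mScarlet. For Tnc (chromosome 4, 63959785 to 64047015, GRCm38) the levels were 17.2, 6.15, 16.2 and 9.96 CPM in GFP and 0.0323, 0, 0.0332 and 0 in mScarlet. Transcripts of Tnc were thus close to absent from mScarlet, with 6 counts over its 4 libraries against 4295 over the GFP libraries, and the groups were far apart (log2 fold change 9.41, SE 1.05, adjusted p = 0.00279, edgeR). Against DN, at 3.99 ± 1.5 CPM (SD, n = 4), the log2 fold change of Tnc was 1.63 (adjusted p = 0.477) for GFP and -7.77 (adjusted p = 0.0033) for mScarlet, both by edgeR. Fn1 (chromosome 1, 71585473 to 71653280) stood at 3048, 663, 845 and 1113 CPM in GFP and 258, 274, 221 and 405 in mScarlet. GFP library 1 had the highest value, and the lowest GFP library still exceeded the highest mScarlet library (log2 fold change 2.29, SE 0.38, adjusted p = 0.0168, edgeR). Left without GFP libraries 1 and 4, Fn1 had a log2 fold change of 1.38 (adjusted p = 0.0814) and Tnc one of 9.25 (adjusted p = 0.0137), by edgeR.

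Porcn (chromosome X, 8193846 to 8206548) was measured at 19.1, 30.8, 38.3 and 29.3 CPM in GFP and 76, 64.3, 65.5 and 40 in mScarlet. Every mScarlet library lay above every GFP library, though mScarlet library 4 was only slightly above GFP library 3 (log2 fold change -1.07, SE 0.23, adjusted p = 0.0339, edgeR). Counts alone cannot separate endogenous Porcn transcripts from any that the Porcn-DMA element may contribute. Prap1 (chromosome 7, 140093396 to 140097203), which encodes a secreted proline-rich acidic protein of the intestine, had 44.1, 122, 125 and 104 CPM in GFP and 373, 278, 400.2 and 205 in mScarlet. All mScarlet values of Prap1 exceeded all GFP values (log2 fold change -1.67, SE 0.29, adjusted p = 0.0185, edgeR). Of the 28 alternatives, Porcn lost its call in 11 and Prap1 in 7, without a change of direction. Porcn was not called without GFP library 1 or 4, nor without mScarlet library 1, 2 or 3. Between libraries of the same number the log2 ratios of GFP to mScarlet, computed after adding 1 CPM, were -1.94, -1.04, -0.76 and -0.44 for Porcn and -3.05, -1.18, -1.67 and -0.97 for Prap1. For Tnc they were 4.14, 2.84, 4.05 and 3.45 and for Fn1 3.55, 1.27, 1.93 and 1.46, so each of these genes differed in the same direction at all 4 numbers. The level of Porcn in DN was 28 ± 4.47 CPM and that of Prap1 65.1 ± 11.3, and in DP 44.6 ± 7.81 and 276 ± 44.5 (SD, n = 4). On both genes the DN mean was near or below that of GFP. The DP mean of Prap1 was nearer to mScarlet and that of Porcn lay about midway.

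**Figure D3:**
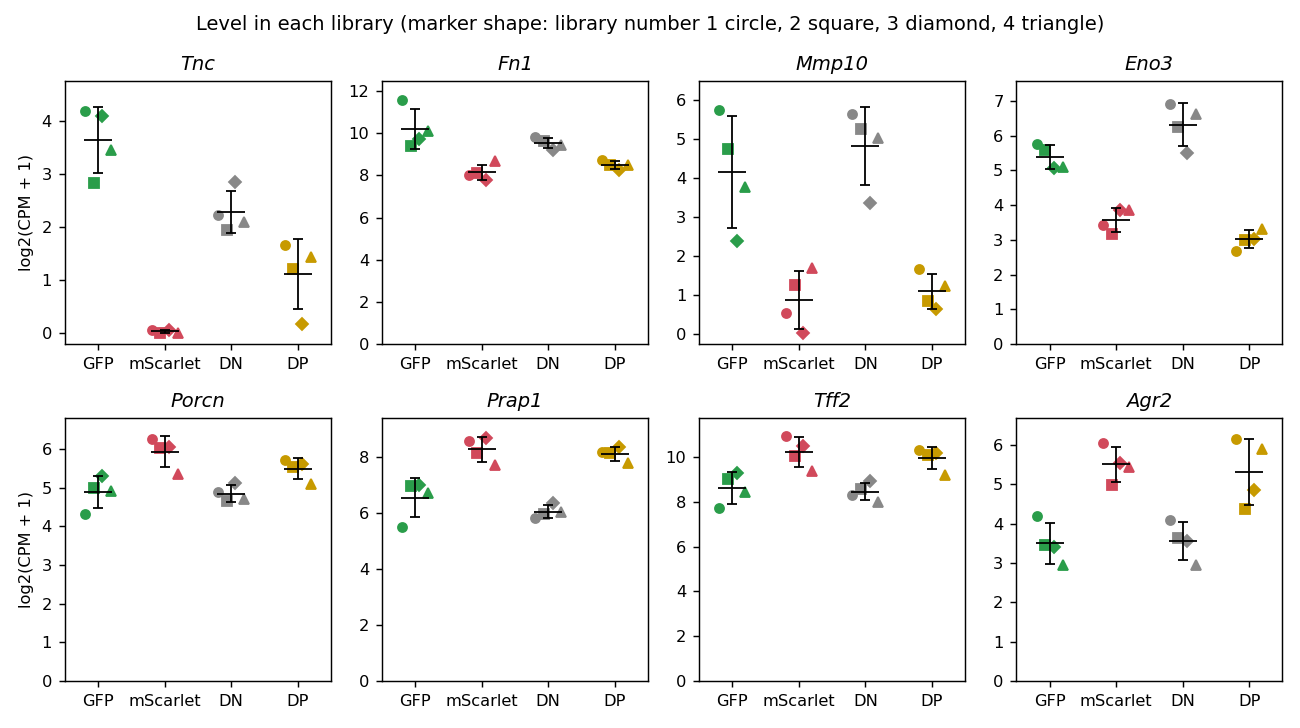
Level of 8 genes as log2(CPM + 1) in every library of the 4 groups; points are libraries with the shape giving the number, the long dash is the group mean and the bar 1 SD (n = 4). In the upper genes the GFP libraries lie above the mScarlet libraries and in the lower genes below them, and the DN and DP libraries are shown beside them for comparison.

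Of the classical PDAC and gastric-type list 6 genes were called higher in mScarlet. Of 23 members tested, 21 had a higher fitted level there and 6 were called (Tff1, Tff2, Tff3, Agr2, Ctse and Lgals4), 0 were called higher in GFP, and the median log2 fold change was -0.74. None was called without GFP library 4 alone. Without GFP libraries 1 and 4, 22 of 24 tested were higher in mScarlet, 0 were called and the median was -0.58. The trefoil factor Tff2, a mucosal peptide of the stomach (chromosome 17, 31141062 to 31144282), had 211, 522, 625 and 341 CPM in GFP and 1953, 1069, 1461 and 666 in mScarlet. The highest GFP library came close to the lowest mScarlet library without overlapping it (log2 fold change -1.60, SE 0.37, adjusted p = 0.0397, edgeR). Its neighbour Tff1 had 13.8, 29.6, 37.3 and 12.6 CPM in GFP and 176, 64.5, 230.4 and 53.3 in mScarlet (log2 fold change -2.49, SE 0.55, adjusted p = 0.036, edgeR), again without overlap. Tff3, the trefoil factor of goblet cells, was at 2.73, 7.17, 9.14 and 2.8 CPM in GFP and 95.4, 18.7, 88.5 and 8.43 in mScarlet (log2 fold change -3.27, SE 0.76, adjusted p = 0.0413, edgeR). Its mScarlet libraries split into a high pair (1 and 3) and a low pair (2 and 4), and mScarlet library 4 fell below GFP library 3. Agr2, a disulfide isomerase that folds mucins in the secretory pathway (chromosome 12, 35992925 to 36004081), had 17.3, 10, 9.55 and 6.65 CPM in GFP and 64.9, 30.6, 45.2 and 42.7 in mScarlet, with no overlap (log2 fold change -2.07, SE 0.41, adjusted p = 0.0287, edgeR). Cathepsin E (Ctse), an aspartic protease of gastric epithelium, was the most even of the 6 in mScarlet, at 299, 817, 698 and 429.5 CPM in GFP and 1114, 1284, 1224 and 1329.9 in mScarlet (log2 fold change -1.14, SE 0.25, adjusted p = 0.0339, edgeR). The log2 fold change of Agr2 without GFP libraries 1 and 4 was -2.22 (adjusted p = 0.16), that of Tff2 -1.17 (adjusted p = 0.371) and that of Ctse -0.71 (adjusted p = 0.241), by edgeR. Tff3 and Lgals4, a lectin of the intestinal surface at 801 ± 319.5 CPM in GFP and 1636 ± 234 in mScarlet (SD, n = 4), were chosen after their values were seen. The list of basal-like PDAC genes was split. Of its 15 tested members 9 were higher in GFP and 0 were called in either direction, at a median of 0.02.

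Intestinal enterocyte and goblet cell genes leaned the same way, with 18 of 27 tested members higher in mScarlet and 3 called (Prap1, Ces2b and Lgals2), 9 higher in GFP and 0 called, and a median of -0.86 (17 of 28, 0 called and -0.64 without GFP libraries 1 and 4). With genes at 0 in a group set to their bound the median was -0.96. Ces2b, a carboxylesterase of the gut, had 1.67, 4.85, 5.94 and 4.07 CPM in GFP and 18.3, 18.1, 23.3 and 8.13 in mScarlet and no overlap (log2 fold change -2.04, SE 0.47, adjusted p = 0.0397, edgeR). Lgals2, a galectin of the digestive tract whose locus overlaps Cdc42ep1, had 779 ± 192 CPM in GFP and 1409.5 ± 271 in mScarlet (SD, n = 4; log2 fold change -0.86). Krt20, the keratin of differentiated intestinal and gastric epithelium, chosen after its values were seen, was at 191, 485, 376 and 225 CPM in GFP and 928, 597, 634 and 628 in mScarlet. Its groups did not overlap either (log2 fold change -1.13, SE 0.24, adjusted p = 0.0335, edgeR).

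The other large differences toward mScarlet were spread over membrane proteins, secreted factors and detoxifying enzymes. Tspan1, a tetraspanin of secretory epithelia, had 1.2, 5.52, 7.16 and 1.02 CPM in GFP and 27.3, 23.3, 25.6 and 11.2 in mScarlet. It had the largest log2 ratio of the 10 genes named by size on this side (log2 fold change -2.55, SE 0.56, adjusted p = 0.0339, edgeR). Bcas1 and the raft protein Mal had log2 fold changes of -2.09 and -1.60, the secreted factor Fam3b one of -1.87, and the cytochrome P450 Cyp3a13 one of -1.61, with edgeR adjusted p-values of 0.0484, 0.0251, 0.0279 and 0.0339. For Mmp15, a membrane-type matrix metalloproteinase and the 1 member of the protease list that was called higher in mScarlet, the libraries held 47.1, 34.4, 74 and 56 CPM in GFP and 235, 187, 148 and 102 in mScarlet (log2 fold change -1.67, SE 0.30, adjusted p = 0.022, edgeR). In none of these 6 genes did a GFP library reach a mScarlet library. Reads of Tff1 and Gm15318, and of Bcas1 and Bcas1os2, overlap and cannot be told apart, since the use of strand is not given.

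Antigen presentation genes gave 1 call. Of 17 tested MHC class I and peptide loading genes, 16 had a higher fitted level in mScarlet and 1 was called, the tapasin relative Tapbpl, at 76.6, 98.2, 80.6 and 57 CPM in GFP and 139, 137, 111 and 128 in mScarlet (log2 fold change -0.72, SE 0.16, adjusted p = 0.0395, edgeR). The nonclassical class I gene H2-T23 had 488 ± 96.5 CPM in GFP and 768 ± 126 in mScarlet (SD, n = 4), without overlap but not called (edgeR adjusted p = 0.0623). Among 21 tested lineage factors of endoderm and pancreas, 17 were higher in mScarlet, 0 of them called (4 at an unadjusted p under 0.05, 2 called by DESeq2 and 0 by limma voom). The counts at an unadjusted p and by DESeq2 were near the shares over all genes. Foxq1, a forkhead factor of gastric mucous cells, came nearest to a call, with 178 ± 39.2 against 318 ± 73.8 CPM (edgeR adjusted p = 0.0549), and Pdx1, the pancreatic lineage factor, had 69.9 ± 18.2 against 98.1 ± 7.26 CPM (edgeR adjusted p = 0.125).

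Several matrix genes were called higher in GFP. Of 32 non-collagen matrix genes tested, 24 had a higher fitted level in GFP and 6 were called (Tnc, Fn1, Lamb1, Fbln1, Loxl1 and Loxl2), with 0 called higher in mScarlet and a median log2 fold change of 2.20. Without GFP libraries 1 and 4, 26 were higher, Tnc alone was called and the median was 1.30. Lamb1, the laminin beta-1 chain of basement membranes, showed the least spread, at 80.5, 76.6, 81.9 and 65 CPM in GFP and 32.7, 29.8, 49.3 and 44.2 in mScarlet (log2 fold change 0.96, SE 0.17, adjusted p = 0.0222, edgeR). Both groups of Lamb1 were even within themselves and did not overlap. Fibulin-1 (Fbln1), a matrix protein of fibroblasts, was at 25.7, 34.9, 17.7 and 447 CPM in GFP and 2.52, 3.39, 3.49 and 5.06 in mScarlet (log2 fold change 5.18, SE 0.96, adjusted p = 0.0251, edgeR). GFP library 4, which also had the highest fibroblast sum, stood far above the other GFP libraries, and these in turn above all of mScarlet. Fbln1 is itself among the fibroblast markers and so is part of that sum. Loxl2, a lysyl oxidase that crosslinks collagen and was chosen after its values were seen, had 39.5, 38.6, 32.3 and 111 CPM in GFP and 5.99, 8.79, 6.94 and 21.2 in mScarlet (log2 fold change 2.37, SE 0.54, adjusted p = 0.0397, edgeR).

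Collagen chains followed, with 17 of 20 tested members higher in GFP, 8 called and a median of 2.75 (17, 0 and 1.47 without GFP libraries 1 and 4, and 3 called without library 4 alone). Col1a1, the main fibrillar collagen chain and itself one of the fibroblast markers, had 265, 323, 221 and 1567 CPM in GFP and 21.9, 5.67, 10.4 and 23.4 in mScarlet (log2 fold change 5.28, SE 0.98, adjusted p = 0.0251, edgeR). GFP library 4 was highest, and the lowest GFP library, at 221 CPM, was still far above the highest mScarlet library, at 23.4. Col3a1, its partner in loose connective tissue, had 349.7, 908, 225 and 5155 CPM in GFP and 41.8, 6.39, 10.8 and 24.3 in mScarlet (log2 fold change 6.32, SE 1.18, adjusted p = 0.0251, edgeR). Without GFP library 4 the log2 fold change was 4.14 (adjusted p = 0.048) for Col1a1 and 4.57 (adjusted p = 0.0461) for Col3a1, and without libraries 1 and 4 it was 4.16 (adjusted p = 0.107) and 4.78 (adjusted p = 0.0922), by edgeR. Col1a2, Col15a1 and, chosen after their values were seen, Col5a1, Col5a2 and Col5a3 were called too, with log2 fold changes from 3.66 (Col5a1) to 5.89 (Col15a1).

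Among genes of the mesenchymal list 19 of 20 tested members were higher in GFP, 5 were called (Snai1, Fn1, Tnc, Itga5 and Axl), and the median was 1.78 (without GFP libraries 1 and 4, 19 higher, 1 called and 1.25). Axl, a receptor tyrosine kinase of mesenchymal carcinoma cells and of macrophages, was at 1099, 275, 184 and 371 CPM in GFP and 78.5, 54.9, 96.8 and 165 in mScarlet. Its highest value was in GFP library 1, the library with the highest macrophage sum, and its groups did not overlap (log2 fold change 2.29, SE 0.50, adjusted p = 0.0339, edgeR). Itga5, the fibronectin receptor subunit, had 222, 136, 120.4 and 289.9 CPM in GFP and 66.3, 94, 68.5 and 90.6 in mScarlet (log2 fold change 1.27, SE 0.24, adjusted p = 0.027, edgeR). The transcription factor Snai1, chosen after its values were seen, was at 2.03, 0.407, 1.36 and 6.19 CPM in GFP and no more than 0.349 CPM in mScarlet (log2 fold change 3.46, SE 0.83, adjusted p = 0.0479, edgeR). GFP library 2 was only slightly above the highest mScarlet library. Snai1 lost its call in 22 of the 27 alternatives that gave it a value, without a change of direction. Cdh15, a cadherin known from muscle precursors and likewise chosen after its values were seen, had 41.4, 53.6, 30.6 and 69.2 CPM in GFP and 0.969, 0.893, 1.1 and 1.67 in mScarlet. It was even within both groups, and it is 1 of the 2 genes that kept their call without any 1 library (log2 fold change 5.39, SE 0.66, adjusted p = 0.00428, edgeR).

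Proteases and their inhibitors included calls in both directions. Of 24 tested, 20 were higher in GFP, with Mmp2, Mmp10, Timp2, Timp3 and Plat called, and Mmp15 was called the other way. The median was 1.94. Without GFP library 4 the list had 0 called higher and a median of 1.04, and without libraries 1 and 4 it had 0 called and 0.94. The stromelysin Mmp10, made by epithelial cells at wound edges, had 52, 25.4, 4.17 and 12.6 CPM in GFP and 0.442, 1.38, 0.0111 and 2.22 in mScarlet (log2 fold change 4.54, SE 1.04, adjusted p = 0.0395, edgeR). The highest mScarlet library was below the lowest GFP library, and in GFP its highest level was in library 1, not in library 4. Mmp2, a gelatinase of fibroblasts, had 54.4, 75, 47 and 820.3 CPM in GFP and 2.85, 1.77, 1.55 and 6.48 in mScarlet (log2 fold change 6.30, SE 1.29, adjusted p = 0.0303, edgeR), with library 4 far above the rest. Plat, the tissue plasminogen activator, chosen after its values were seen, was at 420.3 ± 76.2 CPM in GFP and 186 ± 61.6 in mScarlet (SD, n = 4; edgeR adjusted p = 0.0413).

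Among calls without overlap and with a mean of at least 10 CPM in GFP, the 10 largest ratios came mainly from genes that were nearly absent from mScarlet. Crocc2 had 4452 counts in GFP and 1 in mScarlet, a ratio of depth-scaled counts of 4560.0 with a 95% interval of 818 to 180152. Ssc5d, a scavenger receptor protein, had 7413 and 3 counts (ratio 2531, 866 to 12276), and the chemokine Ccl19 4849 and 2 (ratio 2483, 687 to 20512). These intervals are exact and cover counting error only. Library 4 gave most of all 3 ratios, with Crocc2 at 0.989, 4.56, 0.0736 and 48.4 CPM and Ssc5d at 3.19, 8.03, 1.46 and 77 in GFP. Without it the log2 fold change went from 11.64 to 8.80 (adjusted p = 0.0624) for Crocc2 and from 11.15 to 8.75 (adjusted p = 0.047) for Ssc5d, by edgeR. For Ccl19 the GFP libraries held 0.906, 0.862, 0.135 and 57 CPM, so that library 4 gave nearly all of it. Cxcl12, a chemokine of stromal cells, was at 1.3, 8.02, 4.01 and 231 CPM in GFP and at most 0.0659 in mScarlet (log2 fold change 11.30, SE 2.62, adjusted p = 0.0413, edgeR), and Pi16, a marker of adventitial fibroblasts, at 15.5, 44.2, 9.46 and 790.1 and at most 0.937 CPM (log2 fold change 8.80, SE 2.10, adjusted p = 0.0466, edgeR). Pla2g2d, a secreted phospholipase, was instead highest in GFP library 1, at 121, 1.34, 3.35 and 1.08 CPM, as was the transporter Slco2b1, at 67.7, 9.59, 4.01 and 9.84. The receptor Fgfr1 was high in both, at 40.8, 2.86, 6.38 and 38.4 CPM, and at most 0.233 CPM in mScarlet (log2 fold change 8.28, SE 1.40, adjusted p = 0.0168, edgeR). Of these genes Tnc had the narrowest relative range over the GFP libraries, from 6.15 to 17.2 CPM.

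**Figure D4:**
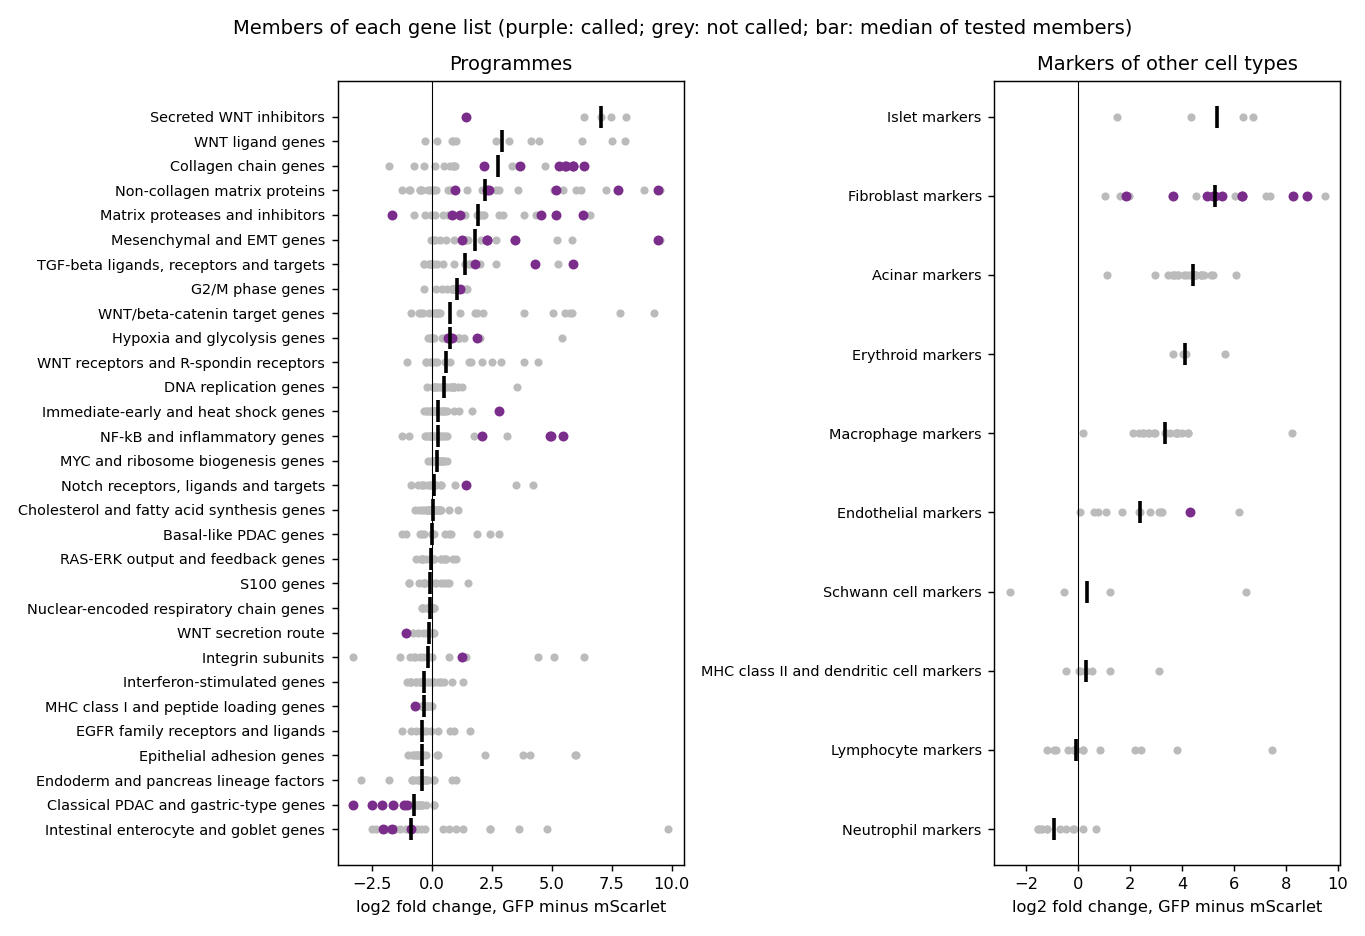
Log2 fold change (GFP minus mScarlet) of each tested member of 30 programme lists (left) and of 10 marker lists of other cell types (right); each point is 1 gene, purple where called, and the black bar is the list's median. Collagen (median 2.75), matrix (2.20) and fibroblast lists (5.27) lie to the right with the most calls, and the classical PDAC (-0.74) and intestinal lists (-0.86) to the left.

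Inflammatory genes were called higher in GFP in part. Of 26 tested NF-kB and inflammatory genes, 17 were higher in GFP, 4 were called (Il6, Cxcl1, Ccl7 and Saa3; 0 without GFP library 4), and the median was 0.26. Cxcl1, a neutrophil-attracting chemokine, had 168, 82.6, 53.3 and 303 CPM in GFP and 21.4, 29.3, 44.4 and 45.1 in mScarlet (log2 fold change 2.11, SE 0.46, adjusted p = 0.0339, edgeR). The cytokine Il6 had 31.7, 3.9, 2.43 and 28.5 CPM in GFP and 1.21, 0.246, 0.177 and 0.582 in mScarlet (log2 fold change 4.91, SE 0.95, adjusted p = 0.027, edgeR). Neither gene overlapped between the groups, and both were highest in GFP libraries 1 and 4. Among the GFP libraries, library 1 had the highest macrophage and the lowest fibroblast sum, and library 4 the reverse. By the mean log2(CPM + 1) of the fibroblast markers, GFP library 3 was instead the lowest (4.1, against 4.52 in library 1). Saa3, an acute-phase protein, had 496, 30, 31.4 and 118 CPM in GFP and at most 8.2 CPM in mScarlet (log2 fold change 5.47, SE 1.25, adjusted p = 0.0397, edgeR), with library 1 on top. With GFP libraries 1 and 4 left out, the log2 fold change of Cxcl1 was 0.96 (adjusted p = 0.436, edgeR). That of Il6 was 2.52 (adjusted p = 0.352) and that of Saa3 3.02 (adjusted p = 0.384), by edgeR. Hspa1a, an inducible heat shock chaperone, was the 1 called of 22 immediate-early and heat shock genes, 17 of which were higher in GFP. Its levels were 194, 57.9, 105 and 319 CPM in GFP and 20.7, 21.5, 25.5 and 30.4 in mScarlet (log2 fold change 2.79, SE 0.42, adjusted p = 0.0168, edgeR). The near-identical Hspa1b, which may exchange reads with it, had 461 ± 165 CPM in GFP and 246 ± 37 in mScarlet (SD, n = 4; not called).

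Of the glycolytic enzymes 5 were called higher in GFP. Of 29 hypoxia and glycolysis genes, 26 had a higher fitted level in GFP, 5 were called (Gpi1, Pfkl, Eno1, Eno3 and Pkm), 0 were called the other way, and the median was 0.74. Eno3, the muscle-type enolase (chromosome 11, 70653125 to 70662513, overlapping Pfn1), had 53.2, 47.4, 32.5 and 33.2 CPM in GFP and 9.87, 7.95, 13.4 and 13.6 in mScarlet (log2 fold change 1.89, SE 0.29, adjusted p = 0.0168, edgeR). The lowest GFP library, at 32.5 CPM, stood well above the highest mScarlet library, at 13.6. Pkm, the pyruvate kinase that carries the last step of glycolysis, chosen after its values were seen, was at 4929, 4182, 4571 and 3786 CPM in GFP and 2836, 2546, 2401 and 3087 in mScarlet (log2 fold change 0.68, SE 0.16, adjusted p = 0.0446, edgeR). Pfkl, a phosphofructokinase subunit, had 819, 890.3, 1148 and 973 CPM in GFP and 531, 592, 508 and 651 in mScarlet (log2 fold change 0.75, SE 0.15, adjusted p = 0.0287, edgeR). Gpi1 and Eno1, the glucose-6-phosphate isomerase and the common enolase, had log2 fold changes of 0.70 and 0.83 (edgeR adjusted p = 0.0339 for each), and the Eno1 copy Eno1b, which may exchange reads with Eno1, one of 0.82. GFP libraries 1 and 4 did not stand apart for Eno3 and Pkm, and without them the log2 fold change was 1.84 (adjusted p = 0.0846) for Eno3 and 0.69 (adjusted p = 0.256) for Pkm, by edgeR. Over the whole list 26 of 29 members were higher in GFP without them, at a median of 0.67, with 0 called.

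Cell division genes leaned toward GFP, mostly short of a call. Of 22 tested G2/M genes, 21 were higher in GFP and 1 was called, with a median of 1.05 (19, 0 and 0.72 without GFP libraries 1 and 4). Cdc20, the activator of the anaphase-promoting complex, had 136, 91.1, 66.1 and 85.5 CPM in GFP and 30.4, 29.6, 54.7 and 51.4 in mScarlet and no overlap (log2 fold change 1.19, SE 0.28, adjusted p = 0.0436, edgeR), and its locus overlaps Elovl1. The mitotic kinases Plk1 and Aurkb, also without overlap, had 47.4 ± 16.4 against 21.2 ± 4.48 CPM and 30.8 ± 12.4 against 15.2 ± 3.46 CPM (SD, n = 4; edgeR adjusted p = 0.0533 and 0.0892). Among 25 DNA replication genes 24 were higher in GFP and 0 were called by edgeR, at a median of 0.50, and without GFP library 1 the 24 became 17. The MYC and ribosome biogenesis list had 18 of 20 members higher in GFP, 0 called and a median of 0.21. At an unadjusted p under 0.05 the replication list held 10 genes and the MYC list 4, the latter near the share over all genes tested. DESeq2 called 6 and 1 of them and limma voom 0 of either.

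WNT genes as such gave few calls. No member of the WNT/beta-catenin target list was called: 17 of its 22 tested members were higher in GFP, 5 of them without overlap of the libraries (5.22% of all genes tested were higher in GFP without overlap) and 8 at an unadjusted p under 0.05. DESeq2 called 5 of the 22, limma voom with quality weights 2, all higher in GFP. Axin2, the feedback gene most used as a readout of the pathway, was at 0.187, 0, 0.0245 and 1.39 CPM in GFP and had 2 counts in all of mScarlet against 134 in GFP, a ratio of 68.6 (95% interval 18.6 to 572.5, counting error only; edgeR adjusted p = 0.174), most of it from GFP library 4. Nkd1, another feedback inhibitor, was at 5.03, 1.76, 2.33 and 33.6 CPM in GFP and 0.786, 0, 0.111 and 0 in mScarlet. The lowest GFP library of Nkd1 exceeded the highest mScarlet library, but the spread within GFP was wide (log2 fold change 5.56, SE 2.00, adjusted p = 0.141, edgeR). Apcdd1, a membrane inhibitor of WNT signalling, was more even, at 14.7, 6.71, 5.78 and 9.74 CPM in GFP and 3.24, 1.57, 1.87 and 1.81 in mScarlet and without overlap (log2 fold change 2.12, SE 0.58, adjusted p = 0.0694, edgeR). Rnf43, the ubiquitin ligase that removes Frizzled, had 11.8, 4.75, 9.76 and 0.841 CPM in GFP and 10.4, 13.4, 3.61 and 11.6 in mScarlet with full overlap (log2 fold change -0.52, SE 0.63, adjusted p = 0.729, edgeR). Lef1 stayed under 1 CPM in all 8 libraries, and Notum and Sp5 were too low to be tested, with 62 counts of Notum in mScarlet library 3 and 0 counts of either in GFP.

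Of the secretion route Porcn was the 1 member called among 10 tested (7 were higher in mScarlet, median -0.12). Without GFP library 1, or without GFP library 4, 0 members were called. The carrier Wls was at 70.5, 80.9, 84.5 and 88.6 CPM in GFP and 86.4, 58.5, 71.7 and 98.7 in mScarlet, and the groups overlapped throughout (log2 fold change 0.04, SE 0.21, adjusted p = 0.947, edgeR). The ligand genes had 11 of 12 tested members higher in GFP and 0 called (7 at an unadjusted p under 0.05, 3 called by DESeq2, 0 by limma voom), with Wnt2 at 3.66, 1.32, 2.06 and 9.98 CPM in GFP and at most 0.751 CPM in mScarlet (log2 fold change 3.20, SE 1.01, adjusted p = 0.0999, edgeR). Of 17 receptor genes 13 were higher in GFP and 0 were called (4 at an unadjusted p under 0.05, 2 by DESeq2, 0 by limma voom), with Lgr6, an R-spondin receptor, nearest to it, at 27.2, 21.2, 12.4 and 28 CPM in GFP and 2.05, 4.49, 2.69 and 11.8 in mScarlet (log2 fold change 2.08, SE 0.56, adjusted p = 0.0646, edgeR). All 5 tested secreted inhibitors had a higher fitted level in GFP and 1 was called (5 at an unadjusted p under 0.05, 4 called by DESeq2, 1 by limma voom, 0 without GFP library 4). That was Igfbp4, a growth factor binding protein that also binds WNT receptors, at 4188, 2699, 2133 and 5139.9 CPM in GFP and 1223, 1032, 1286 and 1674 in mScarlet (log2 fold change 1.44, SE 0.27, adjusted p = 0.0251, edgeR). Sfrp2 and Sfrp4, which bind WNT ligands, were highest in GFP library 4, at 162 and 181 CPM, and missed the threshold (edgeR adjusted p = 0.0801 and 0.0825).

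The remaining signalling lists held few or no calls. Nrarp, a Notch target that feeds back on the pathway, was the 1 called of 17 Notch genes, at 38.8, 36.6, 57.8 and 54 CPM in GFP and 14.2, 16.3, 14.4 and 24.8 in mScarlet, without overlap (log2 fold change 1.42, SE 0.23, adjusted p = 0.0168, edgeR). The Notch ligand Dll4 had 69.2 ± 7.69 CPM in GFP and 35.4 ± 13.4 in mScarlet (SD, n = 4; edgeR adjusted p = 0.0568). Of 21 TGF-beta pathway genes 16 were higher in GFP and 3 were called, the co-receptors Eng and Tgfbr3 and the procollagen protease Bmp1, at a median of 1.37. Without GFP library 4 the TGF-beta list had 0 called and a median of 0.65, and without libraries 1 and 4 it had 0 called and 0.34. Eng, which is also an endothelial marker and overlaps Fpgs, was at 38.7, 1.66, 5.36 and 30.8 CPM in GFP libraries 1 to 4, again highest in 1 and 4 (log2 fold change 4.31, SE 0.86, adjusted p = 0.0287, edgeR). RAS-ERK output genes were split (9 of 20 higher in GFP, or 12 with DESeq2 size factors, 0 called, median -0.02), as were lipid synthesis genes (13 of 24, 0 called, median 0.04), while 16 of 25 interferon-stimulated and 16 of 22 respiratory chain genes were higher in mScarlet, 0 of them called. At an unadjusted p under 0.05 these 4 lists held 3, 2, 2 and 0 genes, of which DESeq2 called 2, 1, 0 and 0 and limma voom 0. Without GFP library 1 the lipid list turned, with 16 of 24 members higher in mScarlet.

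The same genes were also described in the DP and DN libraries, which lie outside the 8 libraries and differ in the mScarlet gate as well as in GFP. Whether they came from the same mice as the 8 libraries is not given. The expression filter, the scaling and the estimate of spread are shared. A gene with a low estimated spread is thus more readily called in both comparisons, and their calls are not independent. Of the 80 genes higher in mScarlet than GFP, 76 were higher in DP than DN (95.0%, against 51.8% of all genes tested), and 28 were called higher there (35.0%, against 0.558% of all genes tested) and 0 lower. Mcpt2, a mast cell type protease chosen after its values were seen, had the lowest p on this side (log2 fold change -1.22, edgeR adjusted p = 0.0121) and was higher in DP than DN too (log2 fold change 1.83, edgeR adjusted p = 0.000139). The 28 included Tff1, Tff2, Tff3, Agr2, Ctse, Prap1, Ces2b, Fam3b, Cyp3a13 and Krt20. Prap1 was at 54.7, 61.1, 81 and 63.6 CPM in DN libraries 1 to 4 and 287, 276, 324 and 217 in DP libraries 1 to 4 (log2 fold change 2.08, SE 0.29, adjusted p = 0.00472, edgeR), and Agr2 at 16.1, 11.4, 10.8 and 6.7 and 69.4, 19.7, 27.7 and 58.2 (log2 fold change 1.96, SE 0.41, adjusted p = 0.0226, edgeR). Porcn had a log2 fold change of 0.67 in DP against DN and was not called.

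Of the 210 genes higher in GFP than mScarlet, 156 were lower in DP than DN (74.3%, against 48.2% of all genes tested), 32 were called lower (15.2%, against 1.57%) and 1, the lectin gene Cd209f, was called higher. All 5 called glycolytic genes were among the 32, with Eno3 at 119, 74.4, 44.2 and 98.4 CPM in DN and 5.45, 7.07, 7.19 and 9.03 in DP (log2 fold change -3.55, SE 0.31, adjusted p = 9.72e-05, edgeR) and Pkm at 5219 ± 1079.8 and 2446 ± 429 CPM (SD, n = 4; log2 fold change -1.09, SE 0.16, adjusted p = 0.00472, edgeR). So were Cdc20, Mmp10, Igfbp4, Itga5, Loxl2, the amino acid transporter Slc7a5 and the tubulin Tubb6, of which the last 3 were chosen after their values were seen. Mmp10 was at 49, 36.7, 9.15 and 31.4 CPM in DN and 2.17, 0.789, 0.557 and 1.31 in DP, without overlap (log2 fold change -4.71, SE 1.04, adjusted p = 0.0297, edgeR). By contrast, Tnc had a log2 fold change of -1.60, Fn1 of -1.04, Col1a1 of -1.89, Il6 of -0.21 and Hspa1a of 0.74 in DP against DN, none of them called. Fibroblast marker sums were 1304 to 3206 CPM in DN and 1409 to 1634 in DP, and macrophage sums 1218 to 5490.4 in DN and 3389.6 to 12071 in DP.

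**Figure D5:**
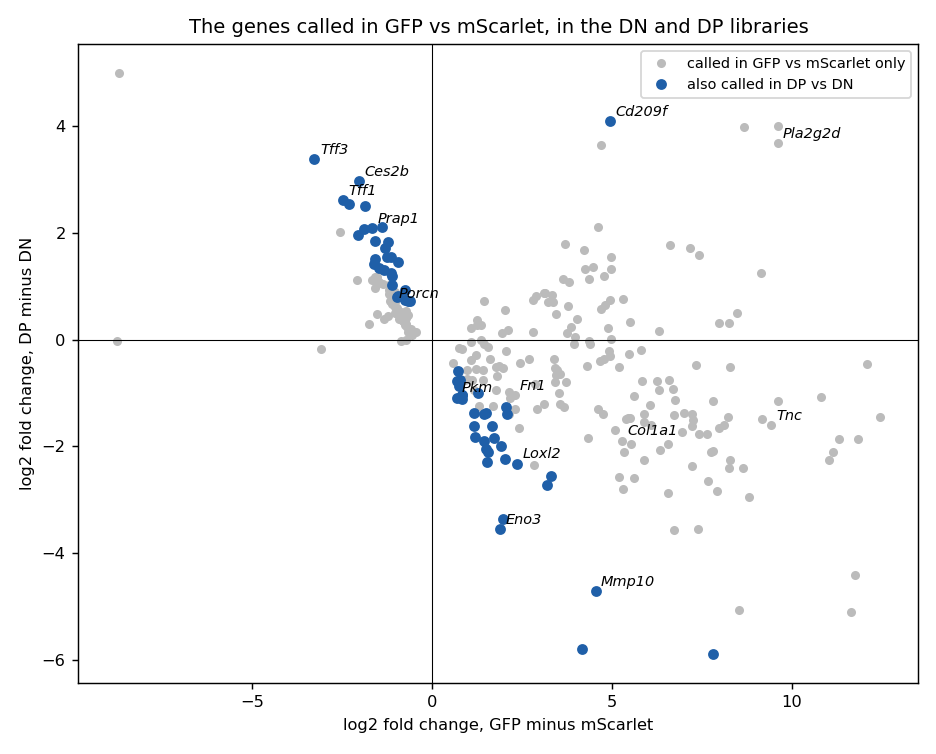
Log2 fold change in DP against DN (vertical) and in GFP against mScarlet (horizontal) of the 290 genes called in the latter; each point is 1 gene, blue where it was also called in DP against DN. The genes higher in mScarlet lie almost all at the upper left, where 28 are blue, and 32 of the genes higher in GFP are blue at the lower right.

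Group means placed the other populations differently for the 2 directions. For 68 of the 80 genes higher in mScarlet the DN mean was nearer to GFP than to mScarlet (85.0%, against 51.6% of all genes tested), and for 78 the DP mean was nearer to mScarlet (97.5%, against 67.4%). Of the 210 genes higher in GFP, DP was nearer to mScarlet for 181 (86.2%), but DN was nearer to GFP for 96 (45.7%). Agr2, Tff2 and Ctse belonged to the first pattern, with DN at 11.3 ± 3.84, 359.7 ± 98.9 and 549.5 ± 113 CPM and DP at 43.7 ± 23.8, 1023 ± 298 and 1309.5 ± 173 CPM (SD, n = 4).

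Motif counts in the promoters did not separate the directions on TCF/LEF letters. A TCF/LEF match lay in the 250 bases before the start of 17 of the 155 genes higher in GFP that had a promoter entry (11.0%), in 6 of 54 higher in mScarlet (11.1%) and in 11.1% of the 12598 tested genes with an entry. AP-1 letters were found in 4.52%, 13.0% and 5.21%, GATA letters in 2.58%, 13.0% and 6.62%, and forkhead letters in 14.8%, 14.8% and 13.9%. Over all 27025 promoters in the table the shares were 14.9% for TCF/LEF, 6.87% for AP-1, 10.3% for GATA and 17.9% for forkhead. In mScarlet the 13.0% shares stand for 7 promoters each. A match is a run of letters and no evidence of binding.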

How the data were processed

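Bulk RNA was measured in 16 libraries of sorted cells, with 4 in each of 4 groups taken from the sample titles. Per the labels' protocols, RNA from cells sorted into lysis buffer was turned into full-length cDNA and amplified by PCR before sequencing with paired reads. Values were deposited by the authors as raw read counts, 1 whole number for each Entrez gene identifier and library. Per the submitters' processing notes, STAR, DESeq2 1.24.0 and the build GRCm38 (mm10) were used. No source used here gives the role of each, the counter or the use of strand, so reads of overlapping genes cannot be told apart. Near-identical copies (Hspa1a and Hspa1b, Eno1 and Eno1b, trypsins, globins) are uncertain as single genes. Of 24467 genes, 24437 matched a RefSeq symbol, and the other 30 held 0.723 to 1.93% of the counts of a library.

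Gene tests used the quasi-likelihood test of edgeR 4.0.16 (R 4.3.3) with TMM scaling and edgeR's expression filter, fitted to all 16 libraries with group as the only term, and Benjamini-Hochberg adjustment over 15963 genes. A gene was called at an adjusted p under 0.05. SE is that of the log2 fold change. A count of 3 was the floor for a group at 0, and counting intervals are exact at 95%. The labels name no molecular identifiers, so these cover counting error only. Lists were described by counts and medians, without a test. Alternatives were other scalings and filters, the 8 libraries alone, the library number as a block, each library left out, GFP libraries 1 and 4 left out, numbers 2 and 3 only, DESeq2 1.42.0, limma 3.58.1 voom with quality weights and, added after the data were seen, robust dispersion estimation. No replicate pair agreed within sampling noise (lowest chi-square per degree of freedom 97.961).

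Named genes were Tnc, Fn1, Porcn and Prap1, 7 further WNT genes, in each direction the 10 calls of largest fold change among genes whose libraries did not overlap and whose higher mean reached 10 CPM (gene models without a symbol, Gm and Rik names were passed over), and in each list up to 4 called members with the lowest p (or the 2 lowest where fewer than 2 were called). Members, lists and this rule were chosen with earlier results of these data known. On simulated counts for this comparison (15411 genes), the test recovered 19, 45, 47 and 49 of 50 genes changed 2-, 4-, 8- and 16-fold, with 6 false among 166 calls. Each library was drawn independently around a common mean per gene, and only genes with a mean of at least 10 CPM were changed. The simulation held no library that departed over many genes together, so its rate of false calls need not hold for the real libraries. Motifs were searched with a script in RefSeq promoter windows of 250 bases.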

Additional observations from a re-analysis of the deposited data

Results flagged for a closer look

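Single libraries far from the other 3 of their group (by Dixon's ratio of the gap to the range) were found in 26 of 306 groups of 4 examined. The rate of about 1 in 20 by chance holds for independent normal values. It cannot be taken over to CPM of related genes, some of them chosen by their values or at 0 in all but 1 library. GFP library 4 was high for Ccl19 (57.0 CPM), Cyp1b1 (43.7), Mmp2 (820.3), Timp3 (24.0), Bmp1 (506), Epcam (29.0), Loxl1 (459), Loxl2 (111) and Col5a1 (847). It was also the library with the highest fibroblast and acinar sums, and Mmp2 and Col5a1 are themselves among the fibroblast markers summed. GFP library 1 was high for Cdc45 (37.6 CPM), Acly (679) and the erythroid gene Slc4a1 (168) and low for Krt14 (30.5). Gzmb was seen in GFP library 3 alone, at 0.982 CPM. On the mScarlet side, library 4 was high for Eno1 (1001 CPM), Gpi1 (645), Ccl7 (10.1), Col5a1 (28.7) and Axin2 (0.022, resting on 2 counts). Library 3 was high for Pla2g2d (0.133 CPM), Smoc2 (0.443), Ccl19 (0.0222), Crocc2 (0.0111) and Wnt5a (0.0111), the last 3 resting on 1 or 2 counts. Library 1 was high for Krt20 (928 CPM) and Slc4a1 (3.3).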

How the results depend on the processing

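The count of 290 calls (210 higher in GFP, 80 lower) moved with most choices. It was 459 (331 and 128) with a filter of 5 CPM, 1519 (1149 and 370) with DESeq2, 113 (86 and 27) with limma voom and quality weights, 2 (2 and 0) in the 8 libraries alone, 2 (2 and 0) without GFP libraries 1 and 4, and 0 (0 and 0) with numbers 2 and 3 only, where 1529 genes had an unadjusted p under 0.05. Other scalings gave 318 and 295, no filter 256 and robust dispersion estimation 245. With 1 library left out in turn the counts ran from 6 to 548 in all, from 3 to 386 higher in GFP and from 2 to 162 lower. Of the 72 called genes named here, 64 of the 64 with a DESeq2 value kept their call there, 28 did with limma voom, 62 with robust estimation and 2 in the 8 libraries alone. Some genes without a call changed sign: Lef1 to 0.13 without GFP libraries 1 and 4 and 0.35 with numbers 2 and 3 only, Epcam to -1.27 and -2.27, Wls to -0.01 without GFP library 4 and -0.07 without mScarlet library 2, Slc4a1 to -1.47 without GFP library 1 and -0.91 without 1 and 4, and Hba-a1 to -0.30 without GFP library 1. With 1 library left out in turn the log2 fold change ran up to 0.19 for Wls, 13.01 for Slc4a1 and 5.86 for Hba-a1. The cause of these changes was not tested.

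A replicate block on the library number gave 1178 calls (714 higher in GFP and 464 lower), which included 206 of the 210 and all 80. In the 8 libraries alone the block gave 30 (30 and 0). Deviations from the group means correlated between same-numbered GFP and mScarlet libraries at 0.168, 0.108, 0.186 and 0.0920 across genes. The last is just under 0.1, and no label ties a number to a mouse. Neutrophil, lymphocyte, endothelial and erythroid marker sums were each highest in number 1 in all 4 groups. The neutrophil sums there were 440, 739, 812 and 590 CPM in GFP, mScarlet, DN and DP. Macrophage, fibroblast, acinar, islet, MHC class II and Schwann cell sums had no such shared number. The numbers were not taken as pairs, so the main fit leaves out any effect of the number, and the pairing is not settled. The block raised the calls higher in GFP from 5 to 19 among glycolysis genes, 6 to 13 among matrix genes, 1 to 8 among G2/M genes and 0 to 2 among WNT targets, against 7.38% of all genes called. GFP library 1 correlated better with mScarlet library 4 (0.183) than with its own number, so not every library correlated best with its own number.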

Other observations

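S100a4, a calcium-binding protein of motile and mesenchymal cells, was at 57.1, 57.1, 24.4 and 47.2 CPM in GFP and 12.9, 7.68, 18.4 and 26.4 in mScarlet. The groups overlapped slightly and the gene was not called (log2 fold change 1.51, SE 0.38, adjusted p = 0.0572, edgeR), while in DP against DN it was called lower (log2 fold change -2.72, SE 0.40, adjusted p = 0.00472, edgeR). Lgr6 and Apcdd1 had the same combination, with log2 fold changes of 2.08 and 2.12 in GFP against mScarlet, not called, and of -3.80 and -2.89 in DP against DN, both called lower.

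The insulin genes Ins1 and Ins2, which islet beta cells make, were highest in GFP libraries 1 and 3. Ins2 was at 13, 0, 25.9 and 1.1 CPM in GFP and 0.0646, 0.0906, 0.133 and 0.198 in mScarlet, so GFP library 3, which had the lowest acinar sum of the GFP libraries (469 CPM), was the highest of the 8 for this gene (log2 fold change 6.35, SE 1.94, adjusted p = 0.091, edgeR). Erbb3, a receptor of the EGFR family, was lowest in GFP libraries 1 and 4, at 28.4, 102, 113 and 12.1 CPM in GFP and 181, 182, 138 and 107 in mScarlet (log2 fold change -1.25, SE 0.53, adjusted p = 0.207, edgeR).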
